A study of Mus musculus with 7 samples.

Results

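The E2F and DP transcription factors were taken as the 10 rows of the count matrix whose gene name is Tfdp1, Tfdp2 or E2f1 to E2f8, out of 55401 genes. All 10 were present once and all 10 passed the filter on low counts that left 16429 genes for testing. The family was chosen with the genotype difference of these data known, that of Tfdp2 above all. The differences between genotypes are therefore given for the 10 genes as a description, with no test.

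RNA-Seq was performed on joint tissue of male C57BL/6J mice that underwent destabilization of the medial meniscus (DMM), an operation that frees the medial meniscus and starts osteoarthritis, in the right knee at 10 weeks of age. Tissue was taken 2 weeks later. Cartilage of the femoral head and tibial plateau was collected, with subchondral bone listed beside it in the Methods, and each sample pooled 2 to 3 mice. By label, 4 samples were wild type (WT) and 3 were Trpc1-/-. The Methods state these numbers the other way round, and the labels were followed. The Trpc1-/- mice carry the constitutive Trpc1 tm1Lbi allele, in which loss of an exon coding for part of the transmembrane region leads to a premature stop, so the deletion is in every cell type of the sample. All 7 samples come from operated joints and no sham-operated library was analysed here. Nothing in the labels says more about separate animals than that samples were pools, so the spread between samples is that between pools.

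The samples held between 52142451 and 118254070 counts, the fewest in WT replicate 1. That sample had the lowest mean correlation with the other samples, 0.947 against 0.973 to 0.980, and the highest muscle marker score, 6.82 against 2.14 to 6.48. The targeted gene was measured at 4.83, 4.55, 4.77 and 4.33 CPM, counts scaled to a common library size, in WT replicates 1 to 4 and at 3.35, 3.79 and 3.04 CPM in Trpc1-/- replicates 1 to 3. Every Trpc1-/- sample lay below every WT sample, but a gene-level count includes the exons that the allele keeps, so it is only a partial check of the labels. Chondrocyte markers were present in all samples, with Col2a1 at 2977 CPM ± 248 (SD, n = 4) in WT. Hemoglobin transcripts were present as well, with Hbb-bs at 9916 CPM ± 2689 (SD, n = 4) in WT, and these mark red cells and their precursors rather than cartilage. In such bulk tissue, fewer cells of a type and less RNA per cell cannot be told apart.

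E2F proteins bind promoters of genes for DNA replication and division. The typical members, E2F1 to E2F6, bind DNA as a dimer with a DP protein, either TFDP1 or TFDP2, whereas the atypical E2F7 and E2F8 bind without one. Retinoblastoma family proteins, the pocket proteins, hold E2Fs inactive or turn them into repressors until G1 cyclin-dependent kinases phosphorylate them. The family is also known in the red cell lineage: E2F4 is needed for normal expansion of red cell precursors, E2F2 for their orderly exit from the cycle, and Tfdp2 is a target of the erythroid factor GATA1.

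Tfdp2 lies on chromosome 9 of GRCm38 at chr9:96196275-96323646, on the plus strand. GENCODE M21 lists 13 protein-coding transcripts of it. Of these, 5 start within 73 bp of the first start and 6 start 62430 to 63010 bp further in. The deposited values are sums over a gene, so these groups of transcripts were not separated. The RefSeq promoter table used here (GRCm38.p6) holds the inner starts, 62430 and 62973 bp after the first. The 120 bases just before the first of these, chr9:96258585-96258704, are shown because they hold a match to a word bound by GATA factors, in capitals.

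Tfdp2 inner start: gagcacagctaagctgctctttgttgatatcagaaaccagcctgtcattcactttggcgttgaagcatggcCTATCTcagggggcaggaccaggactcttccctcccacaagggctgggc

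The letters CTATCT are the reverse complement of AGATAG and begin 49 bases before the start. The words searched on both strands were GATAA and GATAG with an A or T before them, and 29.8% of the 32851 promoters in the table held at least 1 of them in the same 300 bases, so such a match is common. Of the 8 family members with an entry, Tfdp2 was the 1 with a GATA word, at an inner start. Among promoters with at least 65% GC the share with such a word was lower, at 6.55%. The Tfdp2 promoters with an entry, both at inner starts, had the lowest GC of the members, at 45.7% and 39.3%. The outer start of Tfdp2 has no entry, so its promoter was not searched. E2f4 and E2f5 have no entry either.

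The E2F words searched, TTTCGCGC, TTTGGCGC, TTTCCCGC and TTTGCCGC, were rarer. They were found in 2.26% of all promoters and in 4.28% of the 6011 promoters with at least 65% GC. They were found in 4 of the 8 members, and the windows are shown because E2F genes are themselves described as E2F targets. Capitals mark the word on either strand, and all are written in the direction of the gene, which is the minus strand for E2f3 and E2f8.

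Tfdp1, chr8:13338697-13338726: gggcgccgaagGCGCGAAAaggcgcgcagg
E2f2, chr4:136172302-136172323: gcggcatatagTTTGGCGCtaa
E2f3, chr13:29986056-29986085: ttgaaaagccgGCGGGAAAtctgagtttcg
E2f7, chr10:110745230-110745259: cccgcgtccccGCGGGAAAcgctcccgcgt

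Tfdp1 and E2f7 have GC-rich promoters, at 78.0% and 75.3% GC, whereas the windows of E2f2 and E2f3 come from promoters at 54.7% and 55.3%. The E2f8 promoter held none of these words. It held instead TTTGAA, a word called the cell cycle homology region through which the MuvB complex represses genes of mitosis, on the strand opposite to the gene and 20 bases before its start.

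E2f8, chr7:48881600-48881627: agcgggttaatTTCAAAtcgggggctgg

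TTTGAA was also found in a promoter each of E2f2 and E2f3, and in 17.9% of all promoters. These matches are letters within a window and were not measured as binding sites.

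Levels were first compared between the family members, per kilobase (kb) of merged exons, since counts alone favor long transcripts. In WT the highest were Tfdp1, at 34.1 CPM per kb ± 5.0 (SD, n = 4), and E2f2, at 33.8 ± 1.0, and their samples overlapped. E2f4 followed at 24.2 ± 1.2, then Tfdp2 at 14.4 ± 0.2 and E2f8 at 12.7 ± 1.0. Each of these lay apart from its neighbors in all 4 WT samples, although the lowest Tfdp2 value, 14.1, was close to the highest E2f8 value, 14.0. The other members were lower. E2f1 was at 4.06 ± 1.18 and E2f3 at 3.71 ± 0.35, and these overlapped. E2f6 was at 3.10 ± 0.10 and E2f5 at 2.84 ± 0.25, which overlapped with each other, and E2f7 was lowest at 1.74 ± 0.28.

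The length chosen mattered most for Tfdp2. Its merged exons measure 14.0 kb and its longest transcript 7.35 kb. With the longest transcript in place of merged exons, Tfdp2 was at 27.4 CPM per kb ± 0.4 and E2f4 at 29.8 ± 1.5 in WT, so Tfdp2 kept the fourth place but came close to E2f4. E2f6 moved from the eighth to the sixth place, at 5.82 ± 0.18, and E2f5 and E2f7 changed places.

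Among the E2Fs, E2f2 alone made up 39.3% ± 0.8 (SD, n = 4) of the summed CPM per kb in WT and 40.9% ± 0.9 (SD, n = 3) in Trpc1-/-. The activators E2f1, E2f2 and E2f3 together made up 48.2% ± 1.1 and 48.5% ± 1.2. E2f4 and E2f5, which act mainly with pocket proteins as repressors, made up 31.4% ± 2.0 and 31.0% ± 0.9. E2f6, which represses without pocket proteins, made up 3.60% ± 0.18 and 3.66% ± 0.19, and the atypical E2f7 and E2f8 made up 16.8% ± 1.1 and 16.8% ± 0.3. The make-up by class differed between the genotype means by less than the spread between samples in each of these classes. The shares themselves depended on the length chosen. Per kb of the longest transcript, E2f2 made up 33.7% and the activators 42.0% in WT. E2f4 with E2f5 then made up 31.5%, E2f6 5.63% and the atypical members 20.9%.

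**Figure D1:**
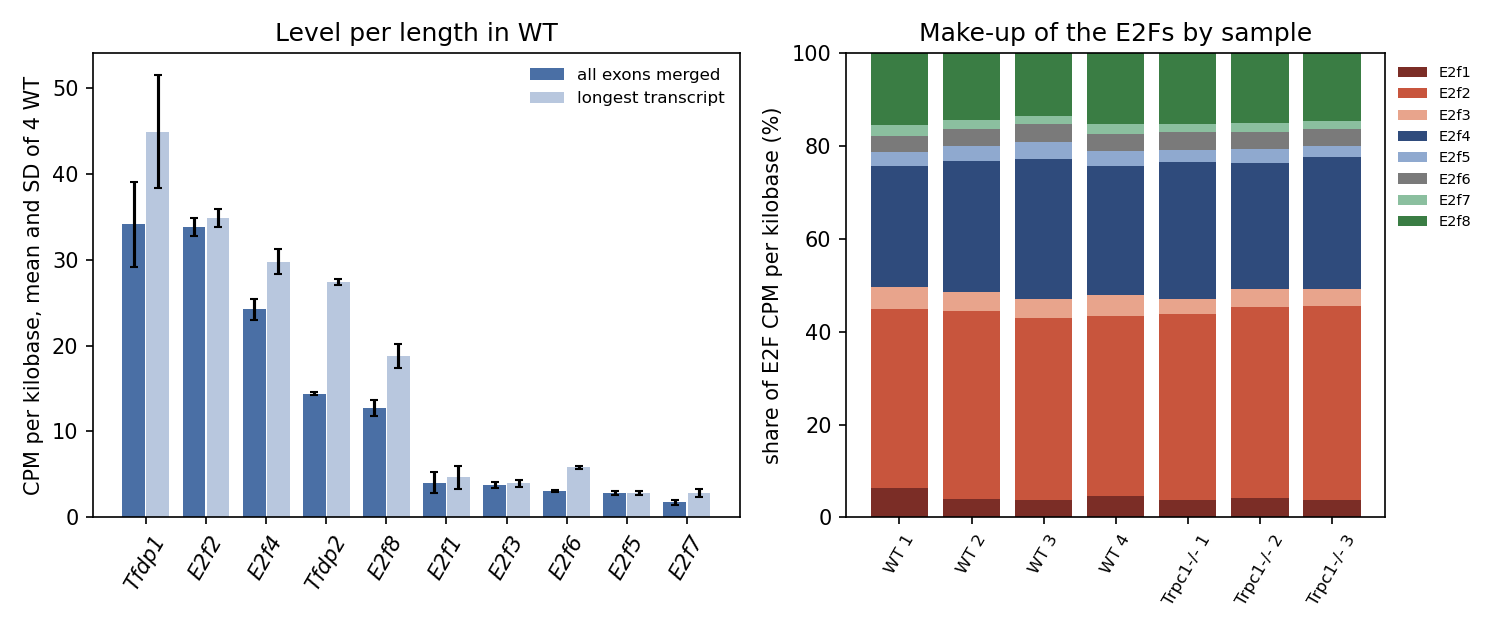
Left, level of each family member in WT as CPM per kb of merged exons (dark) or of the longest transcript (light), mean of 4 samples with SD as the bar. Right, share of each E2F in the summed CPM per kb of the 8 E2Fs, in % for each of the 7 samples. E2f2 and E2f4 are the broadest bands in every sample.

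Of the DP partners, Tfdp2 was measured at 198, 202, 204 and 204 CPM in WT replicates 1 to 4 and at 295, 265 and 291 CPM in Trpc1-/- replicates 1 to 3. All Trpc1-/- samples lay above all WT samples, with a wide gap between the groups. The log2 fold change of Trpc1-/- over WT was 0.49 (SE 0.08), or 1.41-fold between the means. Within WT, Tfdp2 was one of the steadiest genes measured after TMM normalization. Its SD on the log2 scale was 0.019, compared with a median of 0.211 over all genes tested, and 0.481% of genes had a smaller SD. This steadiness depended on the normalization, whose factor was 0.91 for WT replicate 1 and 1.05 to 1.06 for the other WT samples. With library size only, WT replicate 1 lay below the other WT samples, and the log2 fold change was 0.44 (SE 0.13). Within Trpc1-/-, replicate 2 was the low sample, and the coefficient of variation of Tfdp2 there was 5.64% against 1.30% in WT.

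Tfdp1 was measured at 97.8, 132, 136 and 135 CPM in WT and at 148, 128 and 149 CPM in Trpc1-/-. WT replicate 1 stood well below the other samples, and Trpc1-/- replicate 2 lay just below the remaining WT samples, so the groups overlapped. Its log2 fold change was 0.18 (SE 0.13), and 0.075 without WT replicate 1. Tfdp2 took 29.9% ± 3.2 (SD, n = 4) of the summed DP level per kb in WT, with 34.6% in replicate 1 and 28.2% to 28.6% in the others, and between 33.9% and 35.2% in Trpc1-/-. The share depended on the length chosen. Per kb of the longest transcript it was 38.2% ± 3.5 in WT, with 43.4% in replicate 1, and 43.2% ± 0.7 in Trpc1-/-. By counts alone it was 61.9% ± 3.4 and 66.7% ± 0.6. The balance of the partners was thus shifted toward Tfdp2 in Trpc1-/- relative to 3 of the 4 WT samples, with WT replicate 1, whose Tfdp1 was the lowest of all samples, inside the Trpc1-/- range.

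Of the activators, E2f2 was measured at 169, 169, 164 and 158 CPM in WT and at 193, 192 and 203 CPM in Trpc1-/-. The groups did not overlap, and the log2 fold change was 0.25 (SE 0.07). E2f1, an activator that also induces apoptosis, was measured at 18.3, 10.9, 10.1 and 11.9 CPM in WT and at 11.8, 12.8 and 12.0 CPM in Trpc1-/-. Its highest value was that of WT replicate 1 and the remaining samples overlapped. The log2 fold change was -0.06 (SE 0.20), and it was 0.15 without WT replicate 1. E2f3, the third activator, was measured at 22.9, 18.99, 18.8 and 20.1 CPM in WT and at 18.2, 20.04 and 20.2 CPM in Trpc1-/-. Again WT replicate 1 was highest and the groups overlapped, with a log2 fold change of -0.05 (SE 0.09), and of 0.01 without that sample.

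Of the repressors that act with pocket proteins, E2f4 was measured at 57.5, 59.4, 63.4 and 57.0 CPM in WT and at 71.3, 63.6 and 69.2 CPM in Trpc1-/-. The groups lay side by side without overlap, since WT replicate 3 at 63.39 CPM nearly reached Trpc1-/- replicate 2 at 63.63 CPM. The log2 fold change was 0.20 (SE 0.07). E2f5 was the family member with the fewest counts, at 4.91, 4.89, 5.72 and 4.75 CPM in WT and 4.72, 5.15 and 4.56 CPM in Trpc1-/-. Its groups overlapped, and the log2 fold change was -0.08 (SE 0.12), or -0.012 without WT replicate 3, the highest WT sample.

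E2f6, the repressor of germline genes in a Polycomb complex, was measured at 16.97, 17.9, 18.1 and 17.2 CPM in WT and at 21.5, 19.9 and 19.6 CPM in Trpc1-/-. The groups did not overlap, and the log2 fold change was 0.21 (SE 0.07). Among the atypical members, which restrain E2F targets late in S phase, E2f8 was measured at 76.2, 67.3, 63.8 and 69.6 CPM in WT and at 82.6, 78.2 and 79.6 CPM in Trpc1-/-. Its groups did not overlap either, at a log2 fold change of 0.21 (SE 0.08), with WT replicate 1 the nearest to the Trpc1-/- samples. E2f7 was measured at 19.2, 14.8, 13.4 and 15.4 CPM in WT and at 15.7, 16.2 and 16.2 CPM in Trpc1-/-. WT replicate 1 was again highest, the groups overlapped, and the log2 fold change was 0.03 (SE 0.12), or 0.14 without that sample.

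**Figure D2:**
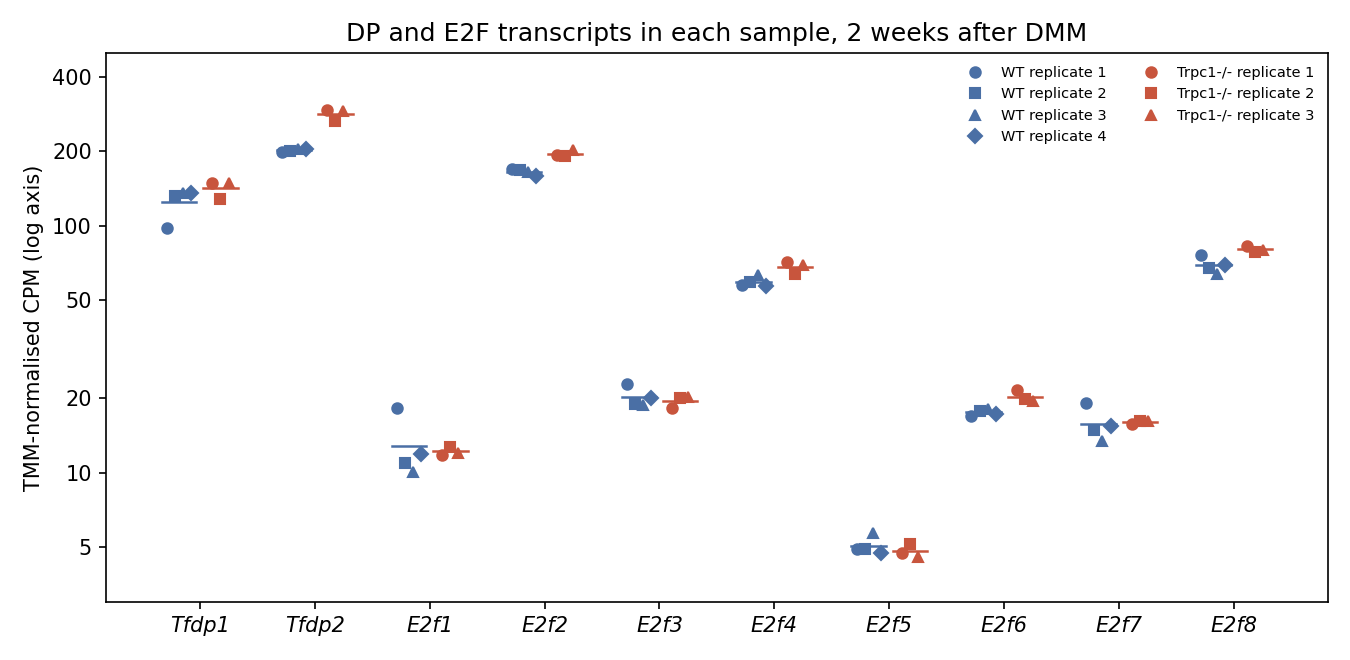
CPM of each of the 10 family members on a log axis, with 1 symbol for each of the 7 samples (blue, WT; red, Trpc1-/-) and a line at each group mean. Tfdp2 shows the widest gap between the groups, and WT replicate 1 (blue circle) stands apart for Tfdp1, E2f1 and E2f7.

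Thus, with CPM normalized by TMM, 5 of the 10 members were higher in all Trpc1-/- than in all WT samples. These were Tfdp2, E2f2, E2f4, E2f6 and E2f8, and no member was lower in all of them. Over all genes tested, 7.15% were higher in all Trpc1-/- samples. Since the family was chosen on this contrast, nothing is read from that difference. The count also depended on the normalization. With library size only, the groups overlapped for E2f4 and E2f6, at log2 fold changes of 0.14 (SE 0.12) and 0.16 (SE 0.12). The test used for the genotype contrast, the quasi-likelihood test of edgeR, called 0 members and 0% of all genes, with 1643 genes, or 10.0%, at an unadjusted p under 0.05. DESeq2 called 294 genes. It called Tfdp2 and E2f2 higher in Trpc1-/-, where it called 0.962% of all genes higher, and these calls are also part of the contrast that chose the family. In DESeq2 the E2f2 call was lost without WT replicate 2 or 3, without Trpc1-/- replicate 1 or 3, with the replicate number as a block and in the libraries numbered in the 1300s, and E2f2 was called in 4 of 26 alternatives in all. E2f8 was called in 1, DESeq2 without WT replicate 1. The largest fold between the group means of a member was 1.41, for Tfdp2.

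The values moved with the sample as well as with the genotype. After the mean of each group was subtracted, E2f1 and E2f7 rose and fell together over the 7 samples (r = 0.98), as did E2f7 and E2f8 (r = 0.92) and E2f1 and E2f3 (r = 0.91). WT replicate 1 accounted for 69.0% of the within-group sum of squares of E2f1 and 62.9% of that of E2f7. Without that sample, r was 0.91 for E2f1 with E2f7, 0.705 for E2f7 with E2f8, and 0.68 for E2f1 with E2f3. Tfdp1 ran opposite to E2f1 (r = -0.93), but at -0.43 without WT replicate 1, and with Tfdp2 it had an r of 0.62 with and 0.99 without it. These values are descriptions of samples that differed in library depth and in marker scores.

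With TMM normalization, Tfdp2 varied so little within WT that 92.8% of its within-group sum of squares came from the 3 Trpc1-/- samples, 61.1% from replicate 2 alone. Of the 11894 other genes with a mean above 5 CPM, those most like it by this measure over the 7 samples were Retreg3 (r = 0.982), Zfp991, Cd59a, Relt (r = 0.981 each) and Acsl1 (r = 0.979), an acyl-CoA synthetase. Those most opposite were Edil3 and Unc5b (r = -0.995 each), Fgfr3 (r = -0.994), Col2a1 (r = -0.990) and Col11a2 (r = -0.987). Fgfr3, a growth factor receptor of growth plate chondrocytes, and the cartilage collagen genes Col2a1 and Col11a2 were thus lowest in the Trpc1-/- samples with the most Tfdp2. The log2 fold changes between genotypes were -0.67 for Fgfr3, -0.48 for Col2a1 and -0.54 for Col11a2. With 7 samples and so many genes compared, these values are a description only. For E2f2, the genes most alike were Chpt1 and Agmo (r = 0.969 each), Rnpc3 (r = 0.960), Zrsr1 (r = 0.952) and Mup10 (r = 0.951), none of which is among those of Tfdp2.

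Since several members are known in red cell precursors, they were set beside a list of erythroid genes, of which 18 of 19 were tested. The mean log2 CPM of the list, its erythroid score, was 8.28, 8.63, 8.68 and 8.52 in WT and 9.14, 8.84 and 9.03 in Trpc1-/-. The groups did not overlap, and the difference of 0.48 had an exact two-sided permutation p of 0.0286, the smallest that the 35 splits of 4 and 3 samples can give, or 0.257 after Benjamini-Hochberg adjustment over the 9 marker lists. The list was chosen with earlier results of this contrast known, so this p is not independent evidence. All 18 genes had a log2 fold change above 0, as did 7904 of the 16429 genes tested. Their summed level ranged from 20450 to 37570 CPM in WT and from 43350 to 58800 CPM in Trpc1-/-. None of the 18 was called by edgeR, and DESeq2 called 5 of them higher, beside 0.962% of all genes. The most abundant were Hbb-bs, at 9916 CPM ± 2689 in WT (n = 4) and 16930 ± 3090 in Trpc1-/- (n = 3), and the alpha-globin genes Hba-a1, at 6698 ± 1881 and 11010 ± 1959, and Hba-a2, at 5857 ± 1563 and 9871 ± 1663. Of the erythroid transcription factors, Gata1 was at 36.5 CPM ± 6.7 and 44.6 ± 7.2, and Klf1 at 57.0 ± 9.8 and 79.6 ± 21.1.

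Within the groups, the erythroid score ran with Tfdp1 (r = 0.90), E2f4 (r = 0.82), E2f6 (r = 0.76) and Tfdp2 (r = 0.72), and opposite to E2f3 (r = -0.92), E2f1 (r = -0.88), E2f7 (r = -0.85) and E2f8 (r = -0.62), each over 7 samples. For E2f2 r was -0.09 and for E2f5 0.13. Without WT replicate 1, r was 0.95 for E2f4, 0.84 for Tfdp2, 0.79 for Tfdp1, 0.74 for E2f6 and 0.41 for E2f2, and it was -0.81 for E2f3, -0.79 for E2f1, -0.58 for E2f7, -0.024 for E2f5 and 0.05 for E2f8. Of the 9 marker lists, the score with the largest r for Tfdp2 in size was the endothelial one, at -0.92, and -0.98 without WT replicate 1. With the chondrocyte score r was -0.64 and -0.97, with the osteoblast and osteocyte score -0.68 and -0.95, and with the neutrophil score 0.47 and 0.88. The members opposite to the erythroid score also had an r larger in size with other lists. With the megakaryocyte score r was -0.96 for E2f3, -0.94 for E2f7 and -0.93 for E2f1. Without WT replicate 1 these were -0.85, -0.65 and -0.48. For E2f1 r was -0.94 with the neutrophil score, and -0.18 without that sample. For E2f8 it was -0.97 with the B lineage score, and -0.88 without that sample. Over the 7 samples, E2f2 had its largest r in size with the muscle score, at 0.80, and 0.855 without WT replicate 1. With the macrophage and osteoclast score r for E2f2 was -0.71, and -0.91 without WT replicate 1. Trpc1-/- replicate 2, which had the lowest erythroid score of its group, also had the lowest Tfdp2, Tfdp1 and E2f4. It had the highest chondrocyte score of its group, 7.19 against 6.45 and 6.62, within the WT range of 6.93 to 7.39.

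When the erythroid score was added to the edgeR model, the log2 fold change was 0.38 (SE 0.12) for Tfdp2 and 0.26 (SE 0.12) for E2f2, compared with 0.49 and 0.25 without it. It was 0.02 (SE 0.10) for E2f4 and 0.08 (SE 0.10) for E2f6. For Tfdp1 it turned to -0.31 (SE 0.14) and for E2f1 to 0.72 (SE 0.21). It was 0.45 (SE 0.15) for E2f7, compared with 0.03 without the score, 0.37 (SE 0.12) for E2f8 and 0.25 (SE 0.11) for E2f3. The score differs between the genotypes, so such a model has little with which to separate them. The part of red cell precursors in the values of the family was not tested.

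**Figure D3:**
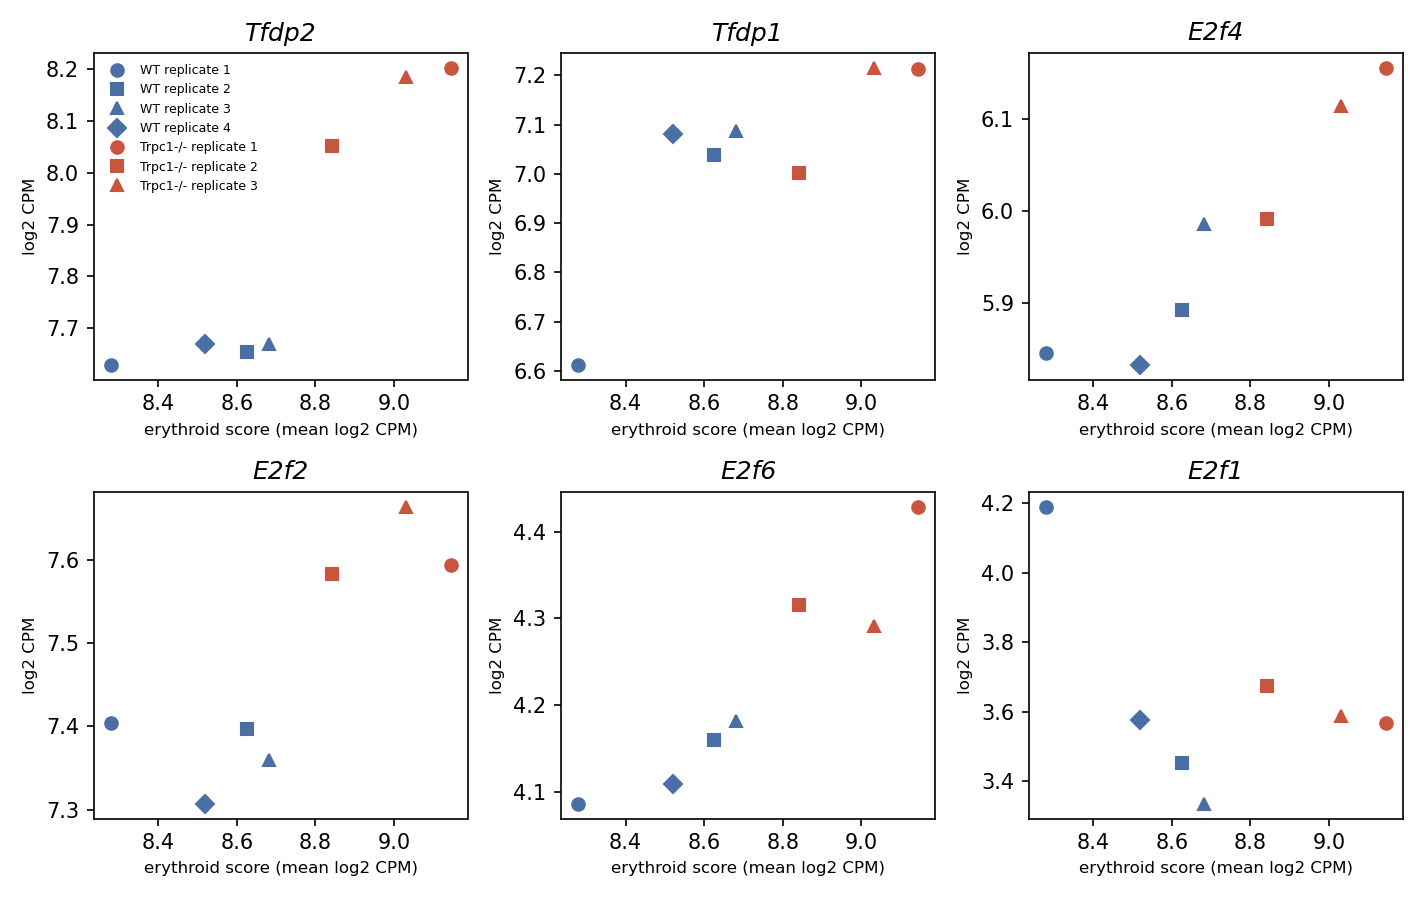
Log2 CPM of 6 family members against the erythroid score (mean log2 CPM of 18 erythroid genes), 1 symbol per sample (blue, WT; red, Trpc1-/-). The 3 Trpc1-/- samples have the highest scores, E2f4 is highest in the 2 samples with the highest scores, and Tfdp2 is nearly level over the 4 WT samples.

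In each of the other marker scores the groups overlapped. The chondrocyte and endothelial scores nevertheless had the same adjusted permutation p as the erythroid score, 0.257. The chondrocyte score was lower in Trpc1-/- by 0.50 (exact two-sided permutation p = 0.0857, adjusted p = 0.257), with all 12 genes lower in the mean and none called by edgeR or DESeq2. The osteoblast and osteocyte score differed by -0.34 (exact p = 0.143), the endothelial score by -0.11 (exact p = 0.0857), and the B lineage score by 0.27 (exact p = 0.171). The muscle score differed by 1.37 (exact p = 0.314), the neutrophil score by 0.24 (exact p = 0.886), the macrophage and osteoclast score by 0.08 (exact p = 0.857) and the megakaryocyte score by 0.09 (exact p = 0.829), with adjusted p of 0.257 to 0.886 over the lists. The neutrophil score ran closely with Tfdp1 within the groups (r = 0.98, and 0.92 without WT replicate 1, which had a score of 7.70 against 8.75 to 9.21 elsewhere). Their part in the values of the family was not tested.

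The genes that E2Fs act with and on were then counted, from lists chosen with earlier results of these data known. For each list, the edgeR test called 0 genes over all genes tested in either direction, and the median log2 fold change is to be read beside that of -0.01 over all 16429 genes. Of the 3 pocket proteins, 1, Rbl1, was higher in all Trpc1-/- samples, where 7.15% of all genes were. It was at 70.2 CPM ± 4.1 in WT (n = 4) and 80.5 ± 4.7 in Trpc1-/- (n = 3), with a log2 fold change of 0.20 (SE 0.08). Rb1, the retinoblastoma gene, had a log2 fold change of 0.15 (SE 0.08), and Rbl2, which is bound to E2F4 in resting cells, was level at 61.8 ± 1.7 and 61.7 ± 0.7 CPM.

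Of the 8 G1 cyclins and kinases, the cyclin E genes were higher in all Trpc1-/- samples, where 7.15% of all genes were. Ccne2 was measured at 42.9, 56.4, 57.1 and 50.04 CPM in WT and at 81.0, 61.4 and 67.9 CPM in Trpc1-/-, with a log2 fold change of 0.44 (SE 0.13). Ccne1 had a log2 fold change of 0.34 (SE 0.10). The D cyclins Ccnd1, Ccnd2 and Ccnd3, which act upstream of the pocket proteins, lay between -0.05 and 0.03, and Cdk2, Cdk4 and Cdk6 between -0.01 and 0.18. The list had a median of 0.02.

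Of the 7 genes of the MuvB core with its partners Mybl2 and Foxm1, all had a log2 fold change above 0, with a median of 0.13. Of these, 1, Lin9, was higher in all Trpc1-/- samples, where 7.15% of all genes were, at 0.19 (SE 0.08). Mybl2, itself an E2F target, was at 0.17 (SE 0.09) and Foxm1 at 0.00 (SE 0.08). Of the 10 partners of E2F6 in its repressor complex, 4 were higher in all Trpc1-/- samples, Cbx3, Rnf2, L3mbtl2 and Pcgf6, and 1 was lower, Ring1, compared with 7.15% and 6.42% of all genes, with a list median of 0.08. Cbx3 was at 85.0 CPM ± 9.5 in WT and 102 ± 9 in Trpc1-/-. Of 5 germline genes held silent by E2F6, 1, the meiotic cohesin gene Stag3, passed the filter. It was measured at 11.5, 7.96, 6.85 and 8.18 CPM in WT and at 5.13, 5.15 and 7.42 CPM in Trpc1-/-, overlapping, with a log2 fold change of -0.54 (SE 0.21), which was 0.026 with the erythroid score in the model. Tuba3a and Tuba3b had 0 counts in every sample, which allows up to 0.0575 CPM in the shallowest sample by a limit of 3 counts.

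The 30 replication genes known as E2F targets, which include the cyclin E genes, were the list with the highest median, 0.29, and 29 of them had a log2 fold change above 0. Of these, 17 were higher in all Trpc1-/- samples, compared with 7.15% of all genes, and DESeq2 called 3, Orc1 and Rrm2 among them, where it called 0.962% of all genes higher. With a sample left out, DESeq2 called from 0 of the list, without Trpc1-/- replicate 1 or 3, to 7, without WT replicate 1. It called 1 without WT replicate 2, 2 without WT replicate 3 or 4, and 5 without Trpc1-/- replicate 2, and it called 0 with the block or in the 1300s. Orc1, a subunit of the origin recognition complex, was measured at 17.8, 19.5, 17.99 and 18.3 CPM in WT and at 23.2, 23.1 and 23.1 CPM in Trpc1-/-. The Trpc1-/- samples were nearly identical and lay clear of WT, at a log2 fold change of 0.33 (SE 0.06) and an adjusted p of 0.381 by edgeR. Rrm2, the regulated subunit of ribonucleotide reductase, was measured at 133, 158, 162 and 154 CPM in WT and at 201, 185 and 192 CPM in Trpc1-/-. The groups did not overlap, with a log2 fold change of 0.34 (SE 0.09).

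The 20 mitosis genes, which follow the MuvB complex more than E2F alone, had a median of 0.25, and all 20 had a log2 fold change above 0. Of these, 9 were higher in all Trpc1-/- samples, where 7.15% of all genes were, and DESeq2 called 1, Mki67, beside 0.962% of all genes. With a sample left out, DESeq2 called 0 to 2 of them, and 0 without WT replicate 2, 3 or 4 or Trpc1-/- replicate 3, with the block or in the 1300s. Mki67, the gene of the proliferation antigen Ki67, was measured at 1670, 1729, 1654 and 1741 CPM in WT and at 2276, 1988 and 1995 CPM in Trpc1-/-, a log2 fold change of 0.30 (SE 0.11) with an adjusted p of 0.457 by edgeR. Plk1, a mitotic kinase, and Cdk1 had log2 fold changes of 0.25 (SE 0.08) and 0.38 (SE 0.13). Without WT replicate 1, the medians were 0.18 for the replication genes and 0.17 for the mitosis genes. With the erythroid score in the model, both medians turned to -0.19, those of the MuvB list, the E2F6 partners and the G1 cyclins and kinases turned to -0.12, -0.14 and -0.05, and the value of Stag3, the 1 germline gene tested, turned to 0.026, so the direction of these 6 lists depended on that setting. The median of the G1 cyclins and kinases was also below 0 with library size only, at -0.036.

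**Figure D4:**
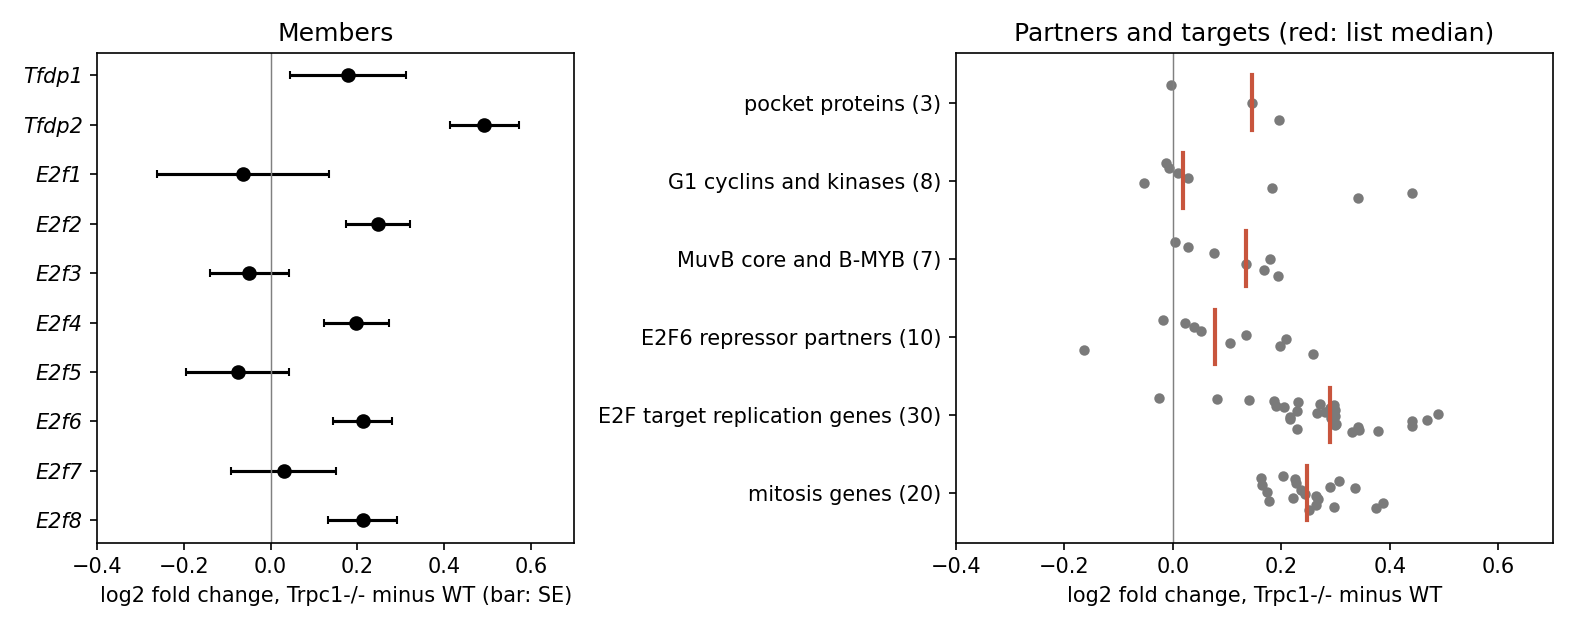
Left, log2 fold change of Trpc1-/- over WT for each family member with its SE. Right, log2 fold changes of single genes (gray) in 6 lists of partners and targets, with the list median in red and the number of genes in parentheses. The medians are highest for the replication genes, at 0.29, and the mitosis genes, at 0.25.

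Tfdp2 lies close to the deleted gene. Trpc1 is at chr9:95705082-95750375 on the minus strand, and 445900 bp separate its end from the start of Tfdp2. GENCODE M21 places 10 genes wholly between them, of which 6 passed the filter. Of these, 2 were higher in all Trpc1-/- samples and called by DESeq2, beside 7.15% and 0.962% of all genes. Gk5, a glycerol kinase gene and the tested gene nearest to Tfdp2, was measured at 7.99, 9.63, 10.1 and 10.4 CPM in WT and at 12.1, 13.1 and 13.8 CPM in Trpc1-/-, with a log2 fold change of 0.44 (SE 0.11). Atr, the kinase of the replication stress checkpoint, was measured at 57.0, 52.7, 51.7 and 54.4 CPM in WT and at 60.9, 64.3 and 63.0 CPM in Trpc1-/-, with a log2 fold change of 0.22 (SE 0.07). For Pls1, Gm16794, Xrn1 and Gm38375 the groups overlapped, with log2 fold changes from -0.11 to 0.18. The other 9 members of the family lie on other chromosomes, and the part of the position of Tfdp2 in its values was not tested.

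**Figure D5:**
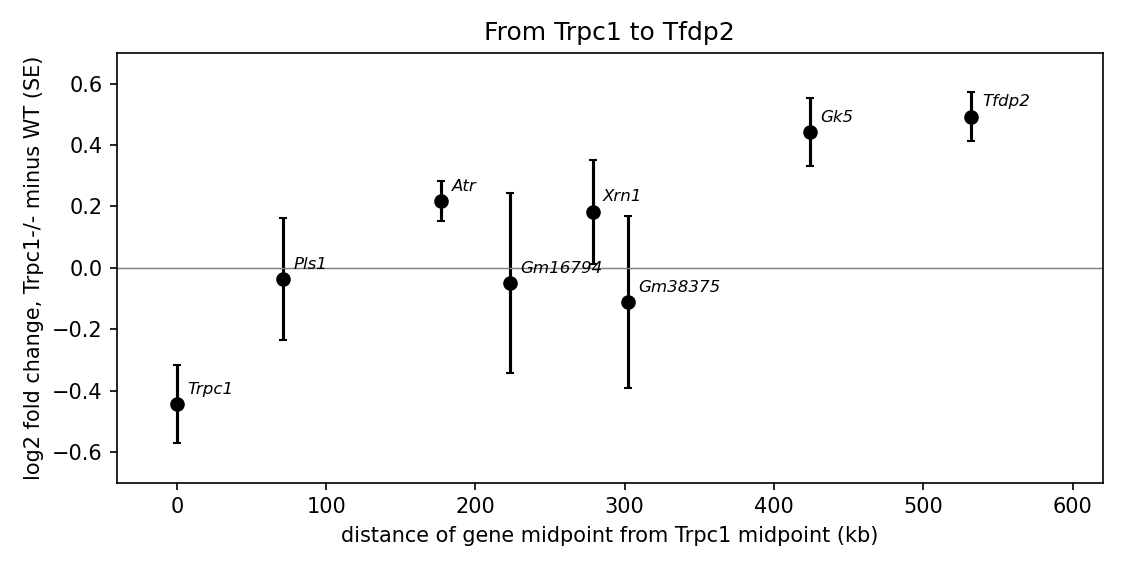
Log2 fold change of Trpc1-/- over WT, with its SE as the bar, for Trpc1, Tfdp2 and the 6 tested genes between them, against the distance in kb of each gene's midpoint from that of Trpc1. Gk5 and Tfdp2, at the far end, have the highest values, 0.44 and 0.49.

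Some family members share their locus with other genes. A transcript to be experimentally checked, Gm37195, lies on the strand of Tfdp2 and had 40 to 89 counts per sample, few beside the counts of Tfdp2. Gm2788, on the strand opposite to E2f8, had 86 to 214 counts, and the libraries were stranded. Gm11365 and 1700020G17Rik, opposite to E2f3 and E2f7, had 0 counts in every sample. The protein-coding gene 1810022K09Rik lies on the strand opposite to E2f5, and its counts were not examined.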

How the data were processed

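The authors depleted ribosomal RNA, sequenced stranded paired-end libraries, trimmed reads with Cutadapt 2.5, aligned them to GRCm38 with HISAT2 2.1.0 and estimated coverage with StringTie 2.0.3, versions being those of the submitters' processing notes. The authors deposited expected counts for 55401 genes and 7 samples, which a StringTie script had derived from the coverage. They were whole numbers already and rounding changed 0 values. The annotation release behind them was not given in the sources used here. Read assignment among overlapping transcripts is fixed by this step and could affect Tfdp2, which has many.

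A gene was tested where 2 or more samples exceeded 1 CPM (16429 genes). After TMM normalization, genotype alone was fitted by quasi-likelihood in edgeR 4.0.16 under R 4.3.3, and p was adjusted by Benjamini-Hochberg over those genes at a threshold of 0.05. SE was taken from the F statistic. DESeq2 1.42.0 and limma-voom (limma 3.58.1) were alternatives, as were other normalizations, other filters on low counts, a replicate block, the libraries named with a number in the 1300s alone, which leaves out WT replicates 3 and 4, the erythroid score as a covariate and each sample left out. DESeq2 with a sample left out, with the block or on the 1300s alone was added after the data were seen. A marker score is the list's mean log2 CPM (prior count 1). Fits were tested on simulated data.

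Positions and exon lengths came from GENCODE M21 (55141 of the 55401 gene IDs matched), promoters from RefSeq (GRCm38.p6, 250 bases before to 50 after a start). The limit of detection was 3 counts, 0.0254 to 0.0575 CPM per sample, and covers counting error only. Samples were grouped by their genotype labels. P-values measure the spread between these pools.

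The members and all lists were chosen with earlier results of these data known. Named genes are the members, Trpc1, the genes of each list called by edgeR or else the 3 with the smallest p (any gene of lists of up to 10), the 5 genes most like and most opposite to Tfdp2 and the 5 most like E2f2, the tested genes between Trpc1 and Tfdp2, and the leading erythroid and chondrocyte markers. Same-numbered samples of the genotypes are different mice, and the labels name no pairing. The correlations of their deviations from group means were -0.35, -0.27 and -0.04, within the -0.35 to 0.38 of differently numbered samples. So few values, each taken around a group mean, cannot decide whether same-numbered samples were handled together. Histology and cell culture were not analysed here. A gene that the rule for named genes covers is not reported here.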

Additional observations from a re-analysis of the deposited data

Results flagged for a closer look

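In 4 of 20 sets of 4 WT values examined, 1 sample lay further from the rest than Dixon's critical value allows. Chance gives about 1 in 20 for independent sets. These sets come from the same 4 WT samples and several run closely together, so the count cannot be set against that rate. Tfdp1 in WT replicate 1 was at 97.8 CPM and the nearest WT sample at 132 CPM. E2f5 in WT replicate 3 was at 5.72 CPM and the nearest at 4.91 CPM. The chondrocyte score of WT replicate 1 was 6.93 and the nearest 7.32. The endothelial score of WT replicate 2 was 5.14 and the nearest 5.10, a small step among scores that are very close.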

How the results depend on the processing

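Over 26 alternatives, the log2 fold change of Tfdp2 lay between 0.38, with the erythroid score as a covariate, and 0.55, and those of E2f2, E2f4, E2f6 and E2f8 also stayed above 0. edgeR called 0 genes, DESeq2 called 294, limma-voom called 1, DESeq2 with the replicate block called 53 and DESeq2 on the libraries in the 1300s called 184. The number called ranged from 0 to 49 with a sample left out in edgeR, 49 being without WT replicate 1, and from 37 to 890 in DESeq2, 37 without Trpc1-/- replicate 3 and 890 without WT replicate 1. The family was chosen on the value of Tfdp2, so its calls under other settings describe the settings and test nothing. Tfdp2 passed the threshold with DESeq2 (log2 fold change 0.50), with DESeq2 in the 1300s (0.51), and with a sample left out in DESeq2 (0.47 to 0.55). In edgeR with a sample left out it ranged from 0.46 to 0.53 and passed only without WT replicate 1 (0.48). With the replicate block its log2 fold change was 0.50 in edgeR and 0.50 in DESeq2 and passed in neither. The block was run on the 3 shared numbers, which are not known to pair the samples. The direction turned for E2f1 with limma-voom (0.028), with the erythroid score (0.72), and without WT replicate 1 (0.15 in edgeR, 0.16 in DESeq2, and down to -0.16 and -0.16 with another sample left out), for E2f3 with the erythroid score (0.25) and without WT replicate 1 (0.014 and 0.018, and down to -0.082 and -0.075 with another left out), for Tfdp1 with the erythroid score (-0.31), and for E2f7 with library size only (-0.018), in the 1300s (-0.085 in edgeR, -0.081 in DESeq2) and without WT replicate 3 (-0.040 and -0.033, and up to 0.14 and 0.14 with another left out). The erythroid score difference was 0.42 with library size only (exact p = 0.0571), 0.55 in the 1300s (exact p = 0.1, the smallest possible there) and 0.40 to 0.56 with a sample left out, where the exact p of 0.0667 or 0.1 was the smallest each design allows. The causes were not tested. Depth limits E2f5 most, the member with the fewest counts.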
